A study of Mus musculus with 9 samples.

Results

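The transcript levels of 10 genes that stand on either side of the epithelial to mesenchymal transition (EMT) were examined in the mouse uterus with and without WNK1, a kinase best known for control of ion transport. The 10 genes were taken by symbol from the 31274 entries of the deposited expression table and comprised 6 EMT transcription factors (Snai1, Snai2, Zeb1, Zeb2, Twist1 and Twist2), the mesenchymal filament gene Vim, and 3 epithelial regulators (Grhl2, Esrp1 and Esrp2). RNA was sequenced from whole uteri of C57BL/6 females at day 4.5 of pseudopregnancy, induced by mating virgin mice to vasectomized males, so no embryo was present. Control mice carried the floxed Wnk1 allele without Cre (Wnk1f/f, n = 4), and mutant mice carried the same allele with Cre driven by the progesterone receptor gene (Wnk1d/d, n = 5), which removes exon 2. Each library came from 1 mouse. Cre acts only in cells that express the progesterone receptor, so endothelial and immune cells of the mutant uterus keep the intact allele, while PGR-expressing cells outside the uterus also lose it.

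In EMT, epithelial cells lose junctions and polarity and take on a motile, matrix-producing state. SNAI, ZEB and TWIST proteins repress epithelial genes and favour this state, and vimentin, encoded by Vim, is the intermediate filament that marks it. GRHL2 activates junction genes and opposes ZEB1, while ESRP1 and ESRP2 direct the epithelial pattern of exon choice. The uterus holds both states side by side: the luminal and glandular epithelium uses the epithelial regulators, and the stroma, vessels and myometrium express Vim and several EMT factors in normal tissue.

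SNAI and ZEB proteins bind the E-box letters CACCTG in DNA, and GRHL proteins bind another element, so the promoters of the genes were searched for them. The search covered no other spelling of the E-box and was not aimed at TWIST proteins. The RefSeq tables (GRCm38.p6, the mm10 build) gave promoter windows of 300 bases for 5 of the 10 genes, namely Snai1, Zeb2, Twist1, Twist2 and Vim. The E-box, spelled CACCTG and read on the opposite strand as CAGGTG, was found in the window of Snai1 and in none of the windows of Zeb2, Twist1, Twist2 and Vim, against 20.2% of all 32851 windows. The palindrome AACCGGTT was in none of the windows of these 5 genes and in 0.146% of all windows. The TATA box, spelled TATAAA and read on the opposite strand as TTTATA, was in the windows of Vim and Twist1 and in 13.6% of all windows. The 250 bases before the RefSeq start are printed for Snai1, which holds the E-box, and for Vim, the gene of the set that fell in the mutant. For Vim, this window lies inside the gene as annotated by GENCODE, which begins at chr2:13573927. Capitals mark CACCTG in Snai1 (chr2:167537945-167538194, plus strand) and TATAAA in Vim (chr2:13574061-13574310, plus strand).
Snai1 promoter: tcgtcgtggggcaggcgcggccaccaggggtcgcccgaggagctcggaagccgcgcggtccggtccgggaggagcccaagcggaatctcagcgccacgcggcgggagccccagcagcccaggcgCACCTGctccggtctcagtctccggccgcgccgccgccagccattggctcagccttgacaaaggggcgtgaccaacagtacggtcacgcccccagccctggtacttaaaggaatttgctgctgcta
Vim promoter: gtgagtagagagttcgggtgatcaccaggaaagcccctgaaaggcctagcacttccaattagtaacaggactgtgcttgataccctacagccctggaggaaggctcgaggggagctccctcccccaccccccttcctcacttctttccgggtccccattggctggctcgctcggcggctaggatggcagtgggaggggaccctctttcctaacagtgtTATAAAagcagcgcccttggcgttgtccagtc

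Of the 10 genes, 8 form paralog pairs, so it matters whether reads could be assigned to the right copy. Across the coding transcripts of the GENCODE annotation, the longest run of identical bases was 23 for Snai1 and Snai2, 23 for Zeb1 and Zeb2, 23 for Twist1 and Twist2, and 35 for Esrp1 and Esrp2, all shorter than the 75-base reads. The stretch around the longest shared run of Twist1 (gene at chr12:33957671-33959829) and Twist2 (gene at chr1:91801461-91848028) is printed to show this, with the 23 shared bases in capitals. It spans coding bases 373 to 455 of Twist1 and 235 to 317 of Twist2, and 75 of its 83 bases are identical.
Twist1 coding: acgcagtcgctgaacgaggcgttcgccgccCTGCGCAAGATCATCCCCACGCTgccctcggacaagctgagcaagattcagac
Twist2 coding: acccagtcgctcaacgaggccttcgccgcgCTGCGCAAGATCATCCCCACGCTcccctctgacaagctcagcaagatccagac

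The values are in FPKM, sequenced fragments already divided by the length of the transcript and by the mapped fragments of the library. FPKM carries no absolute depth, but the low values of 28 sparse entries put the worth of 1 fragment at 0.889 to 1.14 times its mean over the libraries. Those entries were kept only where the highest value was under 1.8 times the lowest value above 0. That limit itself narrows the spread, so these values cannot show that depth was even. Wnk1, the targeted gene, was at 43.41 to 47.32 FPKM in the 4 Wnk1f/f uteri and at 29.85 to 33.94 FPKM in the 5 Wnk1d/d uteri, which matches the labels. In Wnk1d/d replicate 4, 70.3% of all FPKM fell to the highest entry, but the median log2(FPKM + 1) of the genes tested was 3.79 there and 3.80 to 3.82 in the other libraries. The limma test was run on log2(FPKM + 1) for the 14728 genes whose mean exceeded 1 FPKM in either genotype, with p-values adjusted over all of them. All 10 genes passed this filter.

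Vim was far above the other 9 genes in both genotypes, and ranked at position 55 of the genes tested by its mean in Wnk1f/f uteri. Twist2 came next and lay apart from the genes below it in both genotypes. In Wnk1f/f uteri the order then ran Zeb1, Snai1, Esrp1, Esrp2, Grhl2, Snai2, Twist1 and Zeb2, and the ranges of each of these neighbours overlapped. In Wnk1d/d uteri Grhl2 stood above Esrp2 and Snai1, and Zeb2, at the bottom, no longer overlapped with Twist1.

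**Figure D1:**
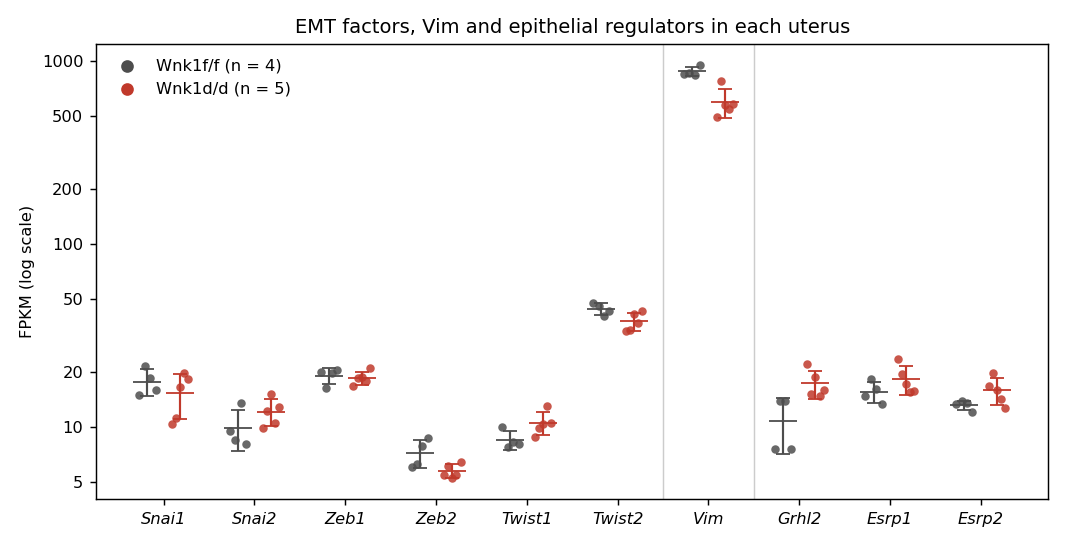
Level of each of the 10 genes in every uterus, in FPKM on a log scale, with Wnk1f/f (n = 4) in grey and Wnk1d/d (n = 5) in red; dots are single mice and bars the mean and SD. The groups are separate for Vim, which was lower in Wnk1d/d, and for Grhl2, which was higher, and overlap for the other 8 genes.

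The SNAI factors are zinc finger repressors of Cdh1 and other junction genes. Snai1 was at 14.92, 21.71, 18.48 and 15.95 FPKM in the 4 Wnk1f/f uteri and at 10.44, 11.24, 16.62, 19.85 and 18.41 FPKM in the 5 Wnk1d/d uteri. The lowest values were those of Wnk1d/d replicates 1 and 2, and the other 3 mutants lay within the control range. Its log2 fold change (Wnk1d/d over Wnk1f/f) was −0.23 ± 0.20 (SE), with a 95% interval from −0.67 to 0.21 and an adjusted p of 0.412. Snai2, which encodes SLUG, was at 9.60, 8.48, 13.50 and 8.10 FPKM in Wnk1f/f and at 9.95, 12.22, 15.13, 10.55 and 12.98 FPKM in Wnk1d/d. All 5 mutants lay above 3 of the controls, but control replicate 3 lay above 4 of the mutants. The log2 fold change of Snai2 was 0.28 ± 0.16 (95% interval −0.07 to 0.63, adjusted p = 0.213). The paired factors thus had means on opposite sides of 0, and neither passed the test.

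The ZEB factors are zinc finger and homeodomain repressors that are held in check by GRHL2 and by the miR-200 family. Zeb1 was at 20.07, 16.29, 19.82 and 20.47 FPKM in Wnk1f/f and at 16.82, 18.51, 18.78, 17.82 and 21.00 FPKM in Wnk1d/d. Its ranges nearly coincided, and its log2 fold change of −0.04 ± 0.09 had the narrowest interval of the 10 genes, from −0.23 to 0.15 (adjusted p = 0.759). Zeb2 was at 6.06, 6.33, 7.87 and 8.71 FPKM in Wnk1f/f and at 5.49, 6.17, 5.28, 5.48 and 6.46 FPKM in Wnk1d/d. Control replicates 3 and 4 were above every mutant, while replicates 1 and 2 lay among the mutants. The log2 fold change of Zeb2 was −0.27 ± 0.11 (95% interval −0.52 to −0.03), with an unadjusted p of 0.0307 that became 0.0943 after adjustment. The exact two-sided permutation test of the same difference gave p = 0.0556, where the smallest p that 4 against 5 mice can give is 0.0079.

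The TWIST factors are basic helix-loop-helix proteins, and Twist2 (also called Dermo1) is a gene of dermal and other mesenchyme. Twist1 was at 10.01, 7.78, 8.27 and 8.09 FPKM in Wnk1f/f and at 8.84, 9.93, 10.48, 13.03 and 10.59 FPKM in Wnk1d/d. The mutants were above 3 of the controls, and control replicate 1 lay among them. Its log2 fold change was 0.28 ± 0.11 (95% interval 0.03 to 0.52, adjusted p = 0.0942, exact permutation p = 0.0556). Twist2 was at 47.92, 45.81, 40.64 and 42.93 FPKM in Wnk1f/f and at 33.78, 34.11, 41.40, 37.27 and 43.04 FPKM in Wnk1d/d. Of the mutants, 3 lay below every control and 2 within the control range. The log2 fold change of Twist2 was −0.22 ± 0.09 (95% interval −0.42 to −0.02, adjusted p = 0.0964, exact permutation p = 0.0714). As with the SNAI genes, the 2 TWIST paralogs had estimates of opposite sign, and neither passed the test after adjustment. After quantile normalization Twist2 alone of the 6 factors passed, with a log2 fold change of −0.27 and an adjusted p of 0.0465.

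Vim (chr2:13573927-13582826), whose product is the main intermediate filament of stromal, endothelial and other mesenchymal cells, fell in the mutant uterus. It was at 857.31, 863.23, 841.94 and 958.19 FPKM in Wnk1f/f and at 497.35, 777.57, 574.02, 547.56 and 582.26 FPKM in Wnk1d/d. Every mutant was below every control, with replicate 2 the nearest to the controls and replicate 1 the farthest. The mean went from 880.2 ± 52.8 (SD, n = 4) to 595.8 ± 106.9 FPKM (SD, n = 5), a log2 fold change of −0.58 ± 0.13 (SE, adjusted p = 0.0151, exact permutation p = 0.0159). Among all genes tested, 94.5% had a higher log2 fold change. The ratio of the means, 0.677, was just short of the 1.5-fold criterion of the study. In whole-tissue RNA, fewer cells of a type and less RNA per cell cannot be told apart. The call was kept with each library left out in turn (adjusted p at most 0.0424), and without Wnk1d/d replicate 2 Vim also met the 1.5-fold criterion.

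Of the epithelial regulators, Grhl2 (chr15:37233036-37363569), a grainyhead factor that activates Cdh1 and claudin genes, was higher in the mutant. It was at 7.62, 13.92, 13.99 and 7.57 FPKM in Wnk1f/f and at 22.03, 15.20, 18.83, 14.81 and 15.94 FPKM in Wnk1d/d. The controls split into 2 low and 2 higher mice, and the higher 2 came within 1 FPKM of the lowest mutant without overlap. The mean rose from 10.8 ± 3.67 (SD, n = 4) to 17.4 ± 3.05 FPKM (SD, n = 5), a ratio of 1.61 and a log2 fold change of 0.68 ± 0.21 (SE, adjusted p = 0.0417, exact permutation p = 0.0079, the smallest the design allows). Its log2 fold change exceeded that of 95.8% of the genes tested. The adjusted p was close to the threshold. It rose above 0.05 when any of 6 libraries was left out, with 0.0994 and 0.110 without Wnk1f/f replicates 1 and 4, and 0.0831, 0.0927, 0.0562 and 0.0689 without Wnk1d/d replicates 1, 3, 4 and 5, while the log2 fold change stayed between 0.55 and 0.81.

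The ESRP genes encode RNA-binding proteins restricted to epithelia. Esrp1 was at 14.76, 18.35, 16.14 and 13.36 FPKM in Wnk1f/f and at 23.65, 19.49, 17.29, 15.64 and 15.83 FPKM in Wnk1d/d. Only mutant replicates 1 and 2 were above all controls, and the log2 fold change was 0.21 ± 0.13 (95% interval −0.08 to 0.51, adjusted p = 0.259). Esrp2 was at 13.37, 13.92, 13.49 and 12.15 FPKM in Wnk1f/f and at 16.81, 19.80, 16.06, 14.25 and 12.70 FPKM in Wnk1d/d. Here 4 of 5 mutants were above all controls, and the log2 fold change was 0.24 ± 0.11 (95% interval −0.02 to 0.49, adjusted p = 0.152). Both intervals include 0 and also include the lower part of the Grhl2 interval, which runs from 0.22 to 1.14.

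**Figure D2:**
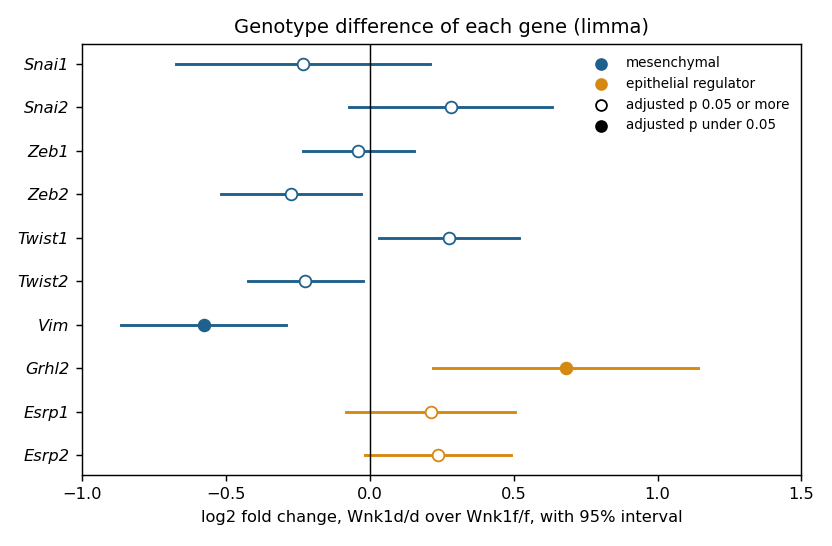
Log2 fold change of each gene (Wnk1d/d over Wnk1f/f) with its 95% interval from limma; blue marks mesenchymal genes, orange epithelial regulators, and filled symbols an adjusted p under 0.05. Vim at −0.58 and Grhl2 at 0.68 are the filled symbols, and the 6 EMT factors spread to both sides of 0.

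Counted over the set, 1 of 10 genes was lower and 1 of 10 was higher at an adjusted p under 0.05, while 11.0% of all genes tested were lower and 11.1% higher. Past the 1.5-fold criterion as well, 1 of 10 (Grhl2) was higher and 0 were lower by limma, where 5.09% and 5.18% of all genes were. The genotypes did not overlap for 1 gene in each direction, beside 10.6% of all genes lower and 9.27% higher without overlap. These shares are near those of the whole table. None of the 6 EMT factors passed limma after adjustment, although 3 of them (Zeb2, Twist1 and Twist2) had an unadjusted p under 0.05. That threshold was met by 5662 of all 14728 genes tested. Of the factors, 4 had a log2 fold change below 0 and 2 above, with a median of −0.13, and all 3 epithelial regulators had one above 0, with a median of 0.24, beside a median of 0.003 over all genes tested.

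To set the mesenchymal genes against the epithelial regulators within each uterus, log2(FPKM + 1) was averaged over the 7 mesenchymal genes and over the 3 regulators. No test was run on these means. The mesenchymal mean was 4.74 to 4.86 in Wnk1f/f and 4.46 to 4.80 in Wnk1d/d, and the epithelial mean was 3.55 to 4.02 in Wnk1f/f and 3.98 to 4.43 in Wnk1d/d. Mesenchymal minus epithelial came to 1.13, 0.71, 0.90 and 1.24 in the 4 controls and to 0.02, 0.41, 0.54, 0.73 and 0.83 in the 5 mutants. The mutant mean of this difference was lower by 0.49 (0.996 ± 0.23 against 0.51 ± 0.31, SD), but mutant replicates 4 and 5 lay within the control range. Most of the shift came from the epithelial side, which differed by 0.38. The mesenchymal genes differed by −0.11, and the 6 factors without Vim by −0.04. On the epithelial side the log2 fold change was 0.68 for Grhl2, 0.21 for Esrp1 and 0.24 for Esrp2, and only Grhl2 passed limma. Mutant replicate 1 had both the highest epithelial and the lowest mesenchymal mean. The ratio of Zeb1 to Grhl2 in FPKM, a factor and the regulator that opposes it, was 1.17 to 2.70 in Wnk1f/f and 0.763 to 1.32 in Wnk1d/d, and overlapped between the genotypes.

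**Figure D3:**
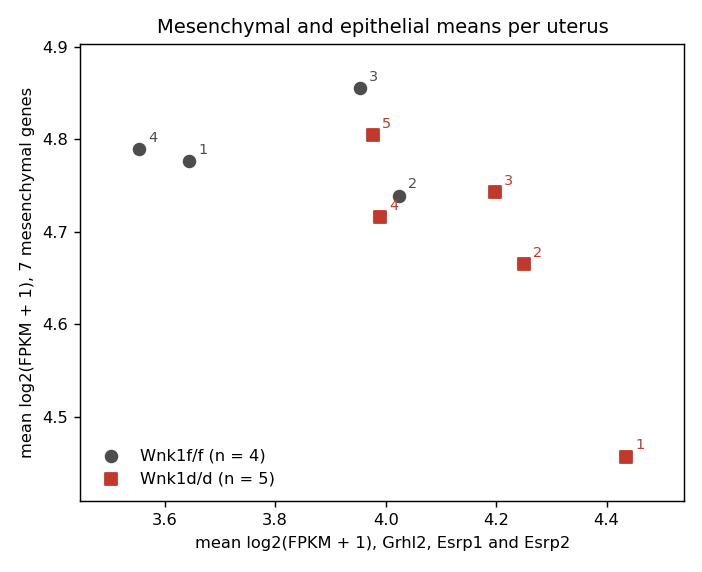
Mean log2(FPKM + 1) of the 7 mesenchymal genes (vertical) against that of Grhl2, Esrp1 and Esrp2 (horizontal) in each uterus, with replicate numbers beside the points; circles are Wnk1f/f and squares Wnk1d/d. Mutants span 3.98 to 4.43 on the epithelial axis and controls 3.55 to 4.02, so that mutant replicates 4 and 5 lie within the control range, and mutant replicate 1 is lowest on the mesenchymal axis at 4.46.

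Likeness within genotypes ran both within and across the classes. After each genotype mean was removed from log2(FPKM + 1), Grhl2 was most like Esrp1 (Pearson r = 0.726 over the 9 libraries) and Esrp2 was most like Esrp1 (r = 0.67), while Zeb1 and Zeb2 were most like each other (r = 0.562). Snai1 and Twist2 were also most like each other (r = 0.57). Vim, in contrast, was most like the epithelial regulator Esrp2 (r = 0.431). The most opposed pair was Zeb1 and Esrp1 (r = −0.738), followed by Twist1 and Esrp1 (r = −0.7). These values rest on 9 whole-uterus libraries whose cell type markers varied from library to library, and are given as a description.

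Among 11030 other genes with a mean above 5 FPKM, the gene most like Grhl2 was Hdc, the histamine-producing enzyme (r = 0.984). Hdc was itself higher in Wnk1d/d (log2 fold change 1.16, adjusted p = 0.0443). This r and those that follow are each the highest of that many genes over 9 libraries, and were not tested. The best match of Snai2 was the collagen VI gene Col6a2 (r = 0.958), which was higher in Wnk1d/d by 1.01 (adjusted p = 0.00116). Twist1 was most like Sertad4 (r = 0.97), which was lower by limma (log2 fold change −0.83, adjusted p = 0.00389). The estimate of Twist1 itself had the opposite sign, 0.28, and was not called. Esrp2 was most like the sugar transporter gene Slc2a6 (r = 0.968, log2 fold change 0.62, adjusted p = 0.0157). The closest genes to the other members were Pxk for Vim (r = 0.991), Rhpn2 for Esrp1 (r = 0.986), Ppp1r16a for Snai1 (r = 0.983), Zfp281 for Zeb1 (r = 0.962), Cyb561a3 for Zeb2 (r = 0.948) and Gpr27 for Twist2 (r = 0.938), and none of these 6 passed limma (adjusted p from 0.0802 to 0.453).

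Other transcription factors linked to EMT moved in both directions. The counts of this list and of those below stand beside 11.0% of all genes tested lower and 11.1% higher by limma. Of 11 listed, 7 were tested, 2 were lower, 2 were higher and 3 did not pass, with a median log2 fold change of −0.09. Tcf4, an E-protein of the TWIST partner family, was lower by 0.63 on the log2 scale (49.7 ± 4.53 to 31.9 FPKM, adjusted p = 0.00727). Sox4 fell by 0.57 (adjusted p = 0.0374), a call that was lost without any of Wnk1f/f replicates 1, 3 and 4 or Wnk1d/d replicates 1, 3, 4 and 5, with adjusted p up to 0.0982. Prrx1, a homeobox factor of mesenchyme, rose from 14.4 to 22.3 FPKM (log2 fold change 0.60, adjusted p = 0.0104). Foxc1 rose by 0.79 (adjusted p = 0.00864) at a low level of 0.615 FPKM in Wnk1f/f and 1.84 FPKM in Wnk1d/d, and passed the filter on low values through Wnk1d/d only.

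Mesenchymal effector genes also moved in both directions: all 13 listed were tested, 6 were higher, 4 were lower and 3 (S100a4, Mmp14 and Lox) did not pass, with a median of 0.14. The fibronectin receptor subunit Itga5 rose by 1.30 (53.8 to 134.5 FPKM, adjusted p = 0.00781), and Fn1, its ligand, rose by 1.09 (adjusted p = 0.00317). Col1a1, Col1a2, Col3a1 and Sparc, genes of matrix proteins, were the other 4 that rose. Pdgfrb, a receptor of pericytes and fibroblasts, fell by 0.84 (39.5 to 21.5 FPKM, adjusted p = 0.00551), and the surface glycoprotein gene Thy1 fell by 0.50 (adjusted p = 0.00981). Cdh2, which encodes N-cadherin, and the protease gene Mmp2 were the other 2 that fell. The calls of Cdh2 and Col3a1 were each lost in 5 of the 9 fits that left out 1 library: Cdh2 without Wnk1f/f 1 or 4 or Wnk1d/d 3, 4 or 5 (adjusted p up to 0.0791), and Col3a1 without Wnk1f/f 2 or 4 or Wnk1d/d 1, 3 or 5 (up to 0.0867).

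Of 5 other filament genes listed, 4 were tested and none was lower by limma, while the muscle filament genes Des and Synm were higher (log2 fold changes 1.22 and 0.87, adjusted p = 0.0102 and 0.0398). Nes had a log2 fold change of −0.30 (adjusted p = 0.0707) and Prph one of −0.14 (adjusted p = 0.444), and the list median was 0.37. The Synm call was kept only when Wnk1f/f replicate 1 or Wnk1d/d replicate 2 was the library left out, and otherwise reached up to 0.0986. Without Wnk1d/d replicate 2, Nes was lower with an adjusted p of 0.0481.

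Beside Grhl2, 3 of the 9 tested epithelial transcription factors were higher and none lower by limma, with a median of 0.22. Elf3 and Ehf, ETS factors of epithelia, rose by 1.02 (25.5 to 52.9 FPKM, adjusted p = 0.0321) and 0.80 (24.9 to 45.2 FPKM, adjusted p = 0.0204). The Elf3 call was lost without Wnk1f/f replicate 1, 3 or 4 or Wnk1d/d replicate 1 or 3 (adjusted p up to 0.0838). The Ehf call was lost without Wnk1f/f replicate 1 or 4 (up to 0.0543). Ovol1, a repressor of mesenchymal genes, was the other that rose (log2 fold change 0.30, adjusted p = 0.0483), a call kept only when Wnk1f/f replicate 2 or Wnk1d/d replicate 2 was the library left out and otherwise lost, with adjusted p up to 0.124. Klf5 had the lowest estimate, −0.22 (adjusted p = 0.255). The count fell to 0 without Wnk1f/f replicate 1 or 4, and to 1 without Wnk1f/f replicate 3, Wnk1d/d replicate 1 or Wnk1d/d replicate 3. Without Wnk1d/d replicate 4 it stayed at 3, with Klf4 (0.0481) in place of Ovol1 (0.0636).

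The junction and surface genes of epithelia include targets of GRHL2 and of the EMT repressors. Over all genes tested, 11.1% were higher and 11.0% lower at an adjusted p under 0.05 by limma. Of 15 tested, 1 was higher and 0 lower by limma, the former being the claudin gene Cldn7 (122.4 to 185.4 FPKM, log2 fold change 0.61, adjusted p = 0.0404), and the median was 0.13. Ap1m2 came next at 0.42 (adjusted p = 0.0819), and Ocln and Cldn4 were lowest at −0.24 and −0.23 (adjusted p = 0.156 and 0.244). Leaving out Wnk1f/f replicate 1 replaced Cldn7 (adjusted p = 0.0967) with Spint1 (0.028), and the Cldn7 call was also lost without Wnk1f/f replicate 4 (0.104) or Wnk1d/d replicate 1, 3 or 4 (0.0811, 0.0935 and 0.0633). Without Wnk1d/d replicate 5, St14 was called as well (0.0355).

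Genes whose exons are chosen by ESRP proteins were read here only as gene totals, so exon choice itself was not measured. Of 6 tested, Arhgef11 was lower (28.5 ± 1.07 to 21.5 FPKM, log2 fold change −0.39, adjusted p = 0.00475), and 5 did not pass, with a median of 0.16. Fgfr2 and Enah had the highest estimates, 0.25 and 0.24 (adjusted p = 0.326 and 0.0626), Ctnnd1 was at 0.06 (adjusted p = 0.509), and Enah was called without Wnk1f/f replicate 1 (0.0403). In the TGF-beta pathway, the best known inducer of EMT factors, 1 of 9 genes passed and the median was −0.10. The signal transducer Smad3 fell by 0.54 (25.3 ± 0.956 to 17.2 FPKM, adjusted p = 0.00661). The ligand genes Tgfb3 and Tgfb2 were at −0.45 and 0.10 (adjusted p = 0.0809 and 0.844), and the receptor gene Tgfbr2 was at 0.30 (0.0685), which was called without Wnk1d/d replicate 4 (0.0216).

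**Figure D4:**
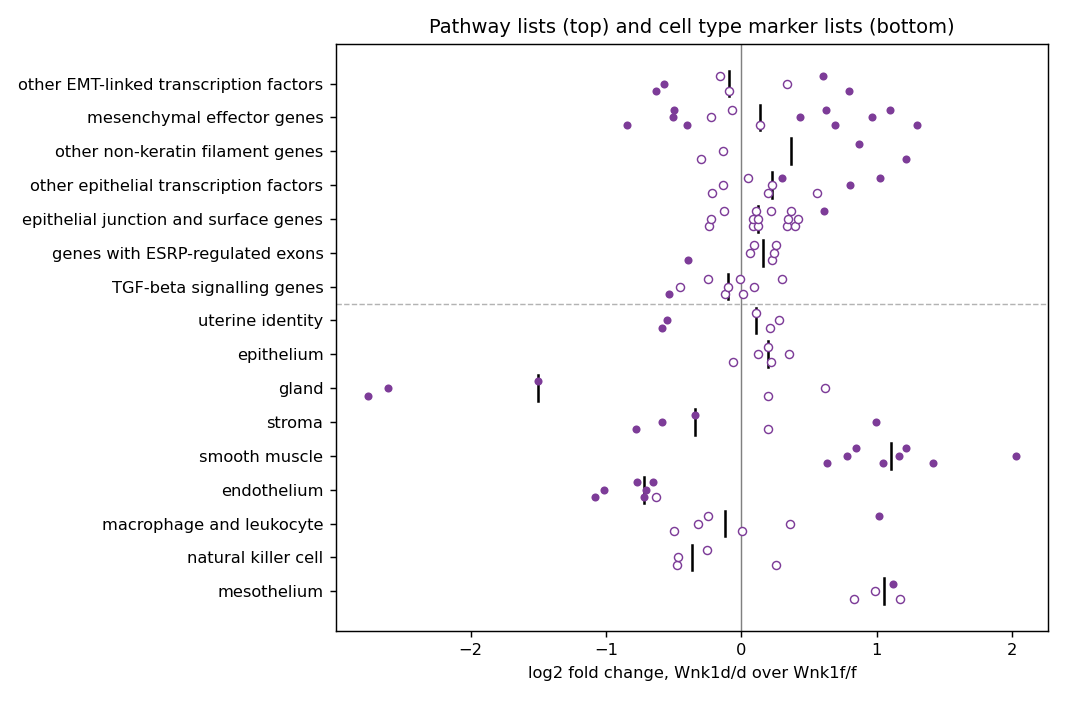
Log2 fold change of every tested gene (Wnk1d/d over Wnk1f/f) in 7 pathway lists, above the dashed line, and 9 cell type marker lists, below it; filled symbols have an adjusted p under 0.05 and black bars are list medians. Smooth muscle markers lie at a median of 1.10 and endothelial markers at −0.72, while the epithelium markers, at 0.20, have no filled symbol.

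Markers of the cell types that make up the uterus moved beside these genes. Their counts also stand beside 11.0% of all genes tested lower and 11.1% higher by limma. The endothelium list, cells rich in Vim, had 6 of 7 markers lower, with a summed level of 383.7 to 424.3 FPKM in Wnk1f/f and 152.4 to 314.5 FPKM in Wnk1d/d. That count fell to 4 without Wnk1f/f replicate 1, 2 or 4 or Wnk1d/d replicate 3, and the calls lost were those of Kdr and Pecam1. In the stroma list, also rich in Vim, Pdgfra, Hand2 and Nr2f2 were lower, Lum was higher and Dcn did not pass, and the sum of 687.8 to 925.9 FPKM in Wnk1f/f overlapped with 804.7 to 1052 FPKM in Wnk1d/d. All 8 smooth muscle markers were higher, with sums of 3333 to 7336 FPKM in Wnk1f/f and 8154 to 15140 FPKM in Wnk1d/d, but the count fell to 5 without Wnk1f/f replicate 2 or 4 or Wnk1d/d replicate 3, 4 or 5. The Hand2 call was lost without Wnk1f/f replicate 1, 2 or 4 or Wnk1d/d replicate 3 or 5 (adjusted p up to 0.0703). Per FPKM of Pdgfra, Vim was at 11.4 to 15.1 in Wnk1f/f and 14.5 to 17.7 in Wnk1d/d, and per FPKM of the endothelial cadherin gene Cdh5 it was at 8.93 to 10.9 and 11.4 to 17.1. Per FPKM of the summed stroma list it was at 0.944 to 1.25 in Wnk1f/f and 0.473 to 0.893 in Wnk1d/d. These ratios were chosen after the values were seen and went in different directions with the marker used. The part of these cell types in the difference in Vim was not tested.

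The epithelium markers Epcam, Cdh1, Krt8, Krt18 and Krt19 gave 0 of 5 calls by limma after adjustment. At an unadjusted p under 0.05 there was 1 of 5, Epcam, beside 5662 of all 14728 genes tested. The adjusted p of Epcam in limma was 0.0872. Their summed level was 598.2 to 900.3 FPKM in Wnk1f/f and 595.3 to 975.8 FPKM in Wnk1d/d. Grhl2 per 1000 FPKM of these markers was at 12.7, 15.5, 20.1 and 11.8 in the 4 controls and at 22.6, 18.5, 25.3, 22.6 and 26.8 in the 5 mutants, with control replicate 3 above mutant replicate 2. Against Epcam alone, Esrp1 was 11.5% to 13.3% of the Epcam value in Wnk1f/f and 11.0% to 15.1% in Wnk1d/d. Esrp2 was 9.99% to 11.1% and 9.59% to 12.6%. Grhl2 was 5.93% to 11.5% of Epcam in Wnk1f/f and 9.68% to 14.1% in Wnk1d/d. Epcam itself had a log2 fold change of 0.22, near those of Esrp1 (0.21) and Esrp2 (0.24), so these shares depend on the marker used. The ESRP genes were not scaled to the summed markers. The part of epithelial content in these differences was not tested.

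Of the remaining markers, the mesothelium list had 1 of 4 genes higher, Lrrn4. That call was lost without Wnk1f/f replicates 2, 3 or 4 or Wnk1d/d replicates 3 or 5 (adjusted p up to 0.0831). The mesothelium sums were 8.30 to 29.06 FPKM in Wnk1f/f and 22.12 to 77.28 FPKM in Wnk1d/d. The leukocyte list had 1 of 6 higher (Cd14). The natural killer cell list had 0 of 4 called by limma. At an unadjusted p under 0.05 it had 1 of 4, beside 5662 of all 14728 genes tested. The adipose markers Adipoq, Plin1, Cidec and Lep summed to at most 0.25 FPKM in any library and were not tested. The defining uterine genes Pgr, Esr1, Hoxa10, Hoxa11 and Wnt7a were present in every library.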

How the data were processed

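Whole-uterus RNA of 9 mice (4 Wnk1f/f, 5 Wnk1d/d, grouped by the GEO titles) was sequenced as 75-base read pairs. The authors aligned the reads to mm10 and deposited FPKM values per gene for each library; TopHat2 2.0.4 and Cufflinks 2.0.2 are named in the submitters' processing notes, and the gene annotation is not given in the sources used here. All 9 value columns were mapped to samples, and 0 were left out.

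After removal of genes whose mean was at or below 1 FPKM in both genotypes, 14728 were fitted with limma 3.58.1 (R 4.3.3, empirical Bayes with a trend, no covariate) on log2(FPKM + 1), a scale that understates changes of low genes, with Benjamini-Hochberg adjustment over all of them. Intervals are limma's 95% intervals. For the members, an exact permutation test (two-sided) over all splits of the 9 mice stands beside limma. The code was tested on simulated data.

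The members and gene lists were chosen with earlier results of these data known. Named beyond the 10 members were, for each pathway list, the 2 highest and 2 lowest log2 fold changes, and for each member the most correlated gene with a mean above 5 FPKM; other genes named are those that passed, those whose call changed, or markers. The values of 1 gene that this rule names are not reported here. The marker Adgre1 is listed under its older symbol. Promoters came from RefSeq (GRCm38.p6) and loci and transcripts from GENCODE M21, both on the build of the reads.

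Alternatives were quantile normalization or scaling to the median, pseudocounts of 0.1 and 0.01, a filter at 5 FPKM or none, library weights, a replicate block, robust variances, a fit with no trend, a 2-fold criterion, and each library left out.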

Additional observations from a re-analysis of the deposited data

Results flagged for a closer look

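Each of the 10 genes was examined for a single uterus far from the others of its genotype, by the gap to its nearest neighbour divided by the whole range (Dixon's test), which made 20 tests. The value flagged was Zeb1 in Wnk1f/f replicate 2, at 16.29 FPKM while the other 3 controls lay between 19.82 and 20.47 FPKM, a gap of 0.844 of the range, above the 95% critical value for 4 samples. Chance flags about 1 in 20 such groups.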

How the results depend on the processing

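Of the settings tried, the count of genes lower in Wnk1d/d changed from 1 to 2 with quantile normalization and to 0 with a replicate block, and stayed at 1 with each library left out. The count of genes higher changed from 1 to 0 without the filter on low values and with the block, and ranged from 0 to 1 with 1 library left out. The number past the 1.5-fold criterion was 0 without the filter, 0 with the block and 0 at 2-fold, and ranged from 0 to 2 with 1 library left out. The log2 fold change of Zeb1 turned to 0.0094 with library weights; the other 9 genes kept their direction in all 19 alternative fits. The cause of these changes was not tested. The mesenchymal minus epithelial difference, −0.49, was between −0.525 and −0.489 with the other pseudocounts and scalings. It was between −0.58 and −0.37 when 1 library was left out.

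The replicate numbers of the titles belong to different mice, and same-numbered libraries did not deviate together (r from −0.27 to 0.022 over the 4 pairs, and 0 of 8 libraries were most alike to their own number), so the block has no basis in the design. With the replicate block, calls over all genes went from 3249 to 220, Vim had an adjusted p of 0.11 and Grhl2 of 0.125 at log2 fold changes of −0.57 and 0.71, and Wnk1 itself had 0.0518. Grhl2 without the filter had an adjusted p of 0.0631. With 4 and 5 mice, the 95% intervals of the EMT factors reached 0.192 (Zeb1) to 0.441 (Snai1) to either side on the log2 scale before adjustment over all genes, and FPKM values give no counting error.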

Other observations

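Outside the EMT genes, 2 further groups stood out among the uterine markers. Of 5 gland markers, 3 were lower and 2 did not pass, where 11.0% of all genes tested were lower by limma. Spink3, a serine protease inhibitor, went from 4247 to 732.8 FPKM (log2 fold change −2.61, adjusted p = 0.00194 by limma), and the implantation protease genes Prss28 and Prss29 fell by 2.75 and 1.5 on the log2 scale (adjusted p = 0.00995 and 0.0267, the latter lost without Wnk1f/f replicate 1 or 4, at 0.0601 and 0.0731). The gland factor gene Foxa2 had a log2 fold change of 0.20 (adjusted p = 0.365) and Cxcl15 one of 0.61 (adjusted p = 0.123). The homeobox genes Hoxa10 and Hoxa11, which specify the uterus, fell by 0.55 and 0.59 (adjusted p = 0.00623 and 0.00651), beside log2 fold changes of 0.11 for Pgr, 0.28 for Esr1 and 0.21 for Wnt7a, none of which passed (adjusted p from 0.129 to 0.656).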
